A study of Mus musculus with 24 samples.

Results

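The entorhinal cortex (EC) of Ts65Dn mice was compared with that of wild-type (wt) littermates by RNA sequencing, on 12 of the 24 libraries of the series, 6 Ts65Dn and 6 wt, taken by the genotype and region that the sample labels give. The other 12 libraries are from the hippocampus (HIP) of the same mice. The description covers 14196 protein-coding genes that were tested in the EC and lie outside the chromosome stretches present in 3 copies in Ts65Dn, out of 17049 genes tested and 55385 genes in the count table. Ts65Dn mice model Down syndrome. They carry a minichromosome that joins the distal end of chromosome 16 (Mmu16) to the piece of chromosome 17 next to its centromere (Mmu17), whereas wt littermates lack it. All mice were males aged 5 to 6 months, untreated, on the F1 B6C3B background, and the Mmu17 part of the minichromosome adds copies of genes that have no counterpart on human chromosome 21. The tissue was dissected whole and frozen, 1 library per mouse and region. Protein-coding genes were counted as outside the triplicated segments if they did not touch the stretches of GRCm38 from Mrpl39 to Zbtb21 on Mmu16 (84717576 to 97962622) or from Pisd-ps2 to 6530411M01Rik on Mmu17 (3076578 to 9167836).

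The EC lies between the neocortex and the HIP and sends the HIP its main cortical input, through excitatory cells of the superficial layers that are held in check by GABAergic interneurons. Genes on an extra chromosome piece are transcribed from more templates than usual. Genes elsewhere keep their usual copy number, and their levels can still differ from those of littermates.

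Total counts on genes ranged from 24904755 to 38299186 in wt EC and from 24965888 to 37209160 in Ts65Dn EC. Levels are given as CPM, counts scaled to a library of 1000000 counts with the TMM method. Each genotype effect is a log2 fold change of Ts65Dn over wt from edgeR's quasi-likelihood test on the deposited counts, and a gene is called where the Benjamini-Hochberg adjusted p over all genes tested is under 0.05. Over 107 protein-coding genes tested in the triplicated segments, the median fold over the wt mean was 1.47 to 1.51 in 5 Ts65Dn EC libraries and 0.982 to 1.025 in the 6 wt libraries. It was 0.996 in the library labelled Ts65Dn replicate 3, and 1.07 in the HIP library of the same mouse. That library goes against its label at the triplicated genes, so counts are given with and without it, a named gene whose call is lost without it is pointed out, and directions drawn from all 12 libraries include it as labelled. Slc17a7, the vesicular glutamate transporter of cortical excitatory cells, lay between 1474 and 1927 CPM (median 1653) in wt and between 1629 and 2283 CPM (median 1951) in Ts65Dn. Reln, made by layer II cells of the EC and by some interneurons, lay between 102 and 223 CPM (median 144) and between 106 and 251 CPM (median 139). Dsp, a granule cell gene of the dentate gyrus, lay between 0.395 and 1.005 CPM (median 0.755) in wt. In Ts65Dn, Dsp lay between 0.484 and 2.19 CPM (median 1.40) and was not called (edgeR adjusted p = 0.13).

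Outside the triplicated segments, 318 of 14196 protein-coding genes (2.24%) were called in the EC, 125 higher (0.881%) and 193 lower (1.36%) in Ts65Dn. Nearly all changes were small. The absolute log2 fold change of the called genes started at 0.15, and 10 genes, all of them higher in Ts65Dn, went beyond 1 on the log2 scale. In 204 of the 318 genes, the 6 Ts65Dn libraries did not overlap the 6 wt libraries. Of all genes tested, the called ones included, 2.35% had that property. The called genes were chosen by a difference between these same libraries, so a high share follows from the choice. A lack of overlap, here and in single genes below, describes the values and adds no separate evidence. Of the called genes, 2 lie beside the Mmu16 span and not far from it, A730009L09Rik at 84515121 to 84523888 and B230307C23Rik at 97997315 to 98031801, and were singled out after their values were seen. The Mmu16 part of the minichromosome begins, by the study's methods, before Mrpl39 and runs to the chromosome end, so both lie on it, and 316 called genes remain without them. On the X chromosome 25 of 499 genes tested were called (5.01%), the highest share of any nuclear chromosome.

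Without the library labelled Ts65Dn replicate 3, 328 of 14277 genes (2.3%) were called, 145 higher (1.02%) and 183 lower (1.28%), and 232 of the 318 genes were among them (90 of the 125 higher and 142 of the 193 lower). Single libraries decided the count in either direction. It fell to 46 without Ts65Dn replicate 1, to 89 without wt replicate 4, to 97 without Ts65Dn replicate 4, to 114 without wt replicate 3, to 117 without wt replicate 5, to 122 without Ts65Dn replicate 2, to 135 without wt replicate 1 and to 179 without wt replicate 6, and was 566 without Ts65Dn replicate 6. A set of 44 of the 318 genes, 8 higher and 36 lower, was called in each of the 12 fits without 1 mouse. When a smooth trend on transcript GC content and length was removed from each library, 48 genes were called (0.338%), 13 higher (0.0916%) and 35 lower (0.247%), of which 39 belonged to the 318. With the same removal and without replicate 3, 158 were called (1.11%). DESeq2 called 884 genes (4.88% of 18098), among them all of the 318.

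Called in each of these 12 fits and with GC content and length removed were 20 genes, and the 10 of them with the smallest p were 9 lower genes and Selenov. Pnrc2, a coactivator of nuclear receptors that also takes part in mRNA decay (chromosome 4, 135870918 to 135873850), lay between 39.5 and 47.2 CPM (median 44.8) in wt and between 28.4 and 32.7 CPM (median 31.3) in Ts65Dn. The groups were separate, with Ts65Dn replicate 3 at 32.7 CPM, the highest of its group and still under the lowest wt library. The gene fell, with a log2 change of -0.51 and a standard error of 0.053 (adjusted p = 0.00147) in edgeR's test, and a log2 fold change of -0.40 with GC content and length removed (adjusted p = 0.0108).
Gabra4, the alpha 4 subunit of GABA-A receptors (chromosome 5, 71569749 to 71658308), lay between 194 and 209 CPM (median 202) in wt and between 146 and 169 CPM (median 154) in Ts65Dn, again without overlap. It fell, with a log2 change of -0.36 and a standard error of 0.044 (adjusted p = 0.00245) by edgeR and an adjusted p of 0.00897 with GC content and length removed. Tmed7, a cargo receptor of the early secretory pathway, lay between 148 and 169 CPM (median 161) in wt and between 105 and 132 CPM (median 123) in Ts65Dn, where the lowest value was that of replicate 3. It fell, with a log2 change of -0.40 and a standard error of 0.055 (adjusted p = 0.00449) in the same test. Serinc1, a membrane protein that incorporates serine into lipids, was the most abundant of the 10. It lay between 1799 and 1959 CPM (median 1888) in wt and between 1401 and 1607 CPM (median 1505) in Ts65Dn, without overlap, and fell with a log2 change of -0.32 and a standard error of 0.044 (adjusted p = 0.00495) by edgeR.

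Among the X-linked genes, Rab39b, a small GTPase of neuronal vesicle traffic (chromosome X, 75572046 to 75578231), lay between 67.0 and 80.7 CPM (median 75.9) in wt and between 46.7 and 63.0 CPM (median 56.0) in Ts65Dn. Every Ts65Dn library was below every wt library, and the gene fell, with a log2 change of -0.44 and a standard error of 0.069 (adjusted p = 0.00724) by edgeR. Mid2, an X-linked ubiquitin ligase that binds microtubules, went from a mean of 44.8 ± 2.34 CPM in wt to 35.5 ± 2.17 CPM in Ts65Dn (SD, n = 6 libraries each). Anp32e, a chaperone that removes histone H2A.Z, had means of 137 ± 7.55 and 111 ± 5.77 CPM. Mal2, a transport protein of polarised cells, had means of 282 ± 17.1 and 226 ± 13.7 CPM, and 2510009E07Rik, a gene without an assigned function, 102 ± 3.74 and 83.7 ± 3.87 CPM. These 4 genes fell by 0.34, 0.31, 0.32 and 0.29 on the log2 scale, with edgeR adjusted p between 0.00666 and 0.00883, and did not overlap between genotypes.
Selenov, which encodes a selenoprotein best known from testis, was the 1 gene of the 10 that rose. Its levels were low, between 0.0717 and 0.240 CPM (median 0.150) in wt and between 0.381 and 1.49 CPM (median 0.953) in Ts65Dn, with the library labelled replicate 3 the lowest of its group and above all wt libraries. It had a log2 change of 2.42 and a standard error of 0.38 (adjusted p = 0.00726) by edgeR. Values of 8 genes, of these and of the next paragraphs, are plotted by library.

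**Figure D1:**
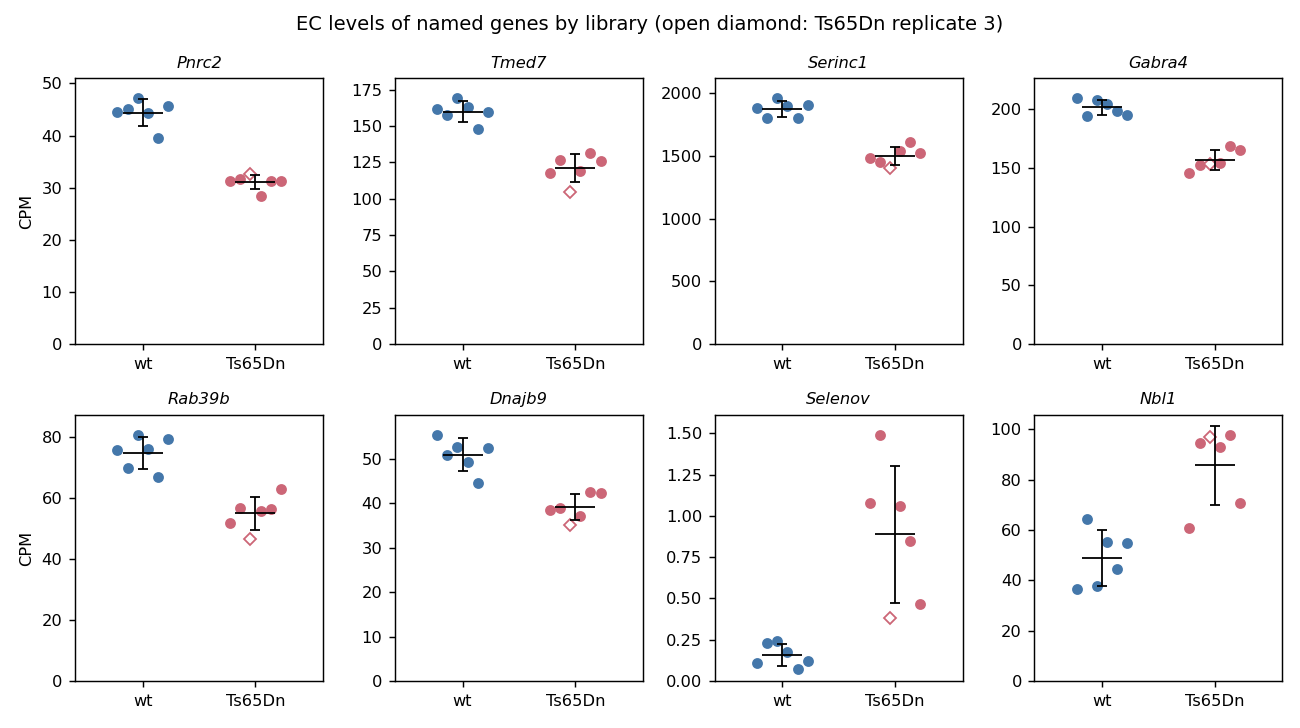
Levels of 8 genes in CPM (vertical axes, each starting at 0) in the 6 wt and 6 Ts65Dn EC libraries, 1 point per library, with the library labelled Ts65Dn replicate 3 as an open diamond and the mean ± SD in black. The genotypes do not overlap for 7 of the genes, and for Nbl1 the lowest Ts65Dn library, at 60.9 CPM, lies under the highest wt library, at 64.3 CPM.

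The largest increases, among genes called with and without replicate 3 and with a mean of at least 1 CPM in either genotype, were in genes with few counts. Olfm5, an olfactomedin domain gene at 46.1% GC, lay between 0.00 and 0.421 CPM (median 0.170) in wt and between 0.312 and 2.98 CPM (median 0.788) in Ts65Dn, where replicates 1 and 2 stood apart at 2.98 and 2.75 CPM and replicate 3, at 0.312 CPM, lay inside the wt range. It had a log2 change of 3.04 and a standard error of 0.70 (adjusted p = 0.0368) by edgeR and was called in 4 of the 12 fits without 1 mouse. A730009L09Rik, on the minichromosome beside the Mmu16 span, lay between 1.45 and 1.84 CPM in 5 Ts65Dn libraries and at 0.104 CPM in replicate 3, and did not exceed 0.556 CPM in wt. This gene was called in 6 of the 12 fits.
Among secreted proteins, Sfrp5, an antagonist of Wnt ligands, rose by a log2 fold change of 1.60 (adjusted p = 0.0323), and Lbp, which binds bacterial lipopolysaccharide, by 1.03 (adjusted p = 0.0183). Angptl1, an angiopoietin-related protein, rose by 0.92 (adjusted p = 0.017), and C1qtnf2, a C1q and TNF related protein, by 0.77 (adjusted p = 0.035, all from edgeR). Sfrp5 overlapped between genotypes and the other three did not. Lbp and Angptl1 were each called in 11 of the 12 fits without 1 mouse, Sfrp5 in 6 and C1qtnf2 in 3.

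Nbl1, a secreted antagonist of BMP ligands, was the most abundant gene of this set. It lay between 36.6 and 64.3 CPM (median 49.6) in wt and between 60.9 and 97.8 CPM (median 93.8) in Ts65Dn, with 5 Ts65Dn libraries above every wt library. It rose, with a log2 change of 0.81 and a standard error of 0.15 (adjusted p = 0.0169) by edgeR, was called in all 12 fits without 1 mouse, and kept an adjusted p of 0.0409 with GC content and length removed. Of genes for vesicle docking and exocytosis, Sytl1, a synaptotagmin-like Rab27 effector, rose by 1.39, Rph3al, a Rab effector in regulated secretion, by 0.98, and Exoc3l4, related to a subunit of the exocyst, by 0.96 on the log2 scale (edgeR adjusted p = 0.0259, 0.0316 and 0.0471). Their wt means were under 1.1 CPM, and in Rph3al and Exoc3l4 replicate 3 lay within the wt range. Sytl1 was called in 7 of the 12 fits without 1 mouse, Rph3al in 4 and Exoc3l4 in 2. The last of the 12, 2410004P03Rik, had a log2 change of 0.89 and a standard error of 0.18 (adjusted p = 0.0236) in the same test. The set also holds Drd2, described with the striatal markers. With GC content and length removed, 4 of the 12 kept an adjusted p under 0.05, which were A730009L09Rik, Lbp, Angptl1 and Nbl1.

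The largest decreases were in more abundant genes. Ptar1, which carries a prenyltransferase alpha subunit domain, lay between 41.9 and 62.5 CPM (median 46.6) in wt and between 23.8 and 40.1 CPM (median 31.1) in Ts65Dn, without overlap, and fell with a log2 change of -0.66 and a standard error of 0.13 (adjusted p = 0.0183) by edgeR. Trp53inp1, a p53 target that acts in autophagy, lay between 11.4 and 17.3 CPM (median 14.0) in wt and between 8.35 and 11.9 CPM (median 8.92) in Ts65Dn, where replicate 6 alone reached the wt range, and fell with a log2 fold change of -0.58. Arhgap5, a GTPase-activating protein, lay between 224 and 274 CPM (median 252) in wt and between 158 and 204 CPM (median 184) in Ts65Dn, without overlap, and fell with a log2 change of -0.46 and a standard error of 0.068 (adjusted p = 0.00519) in the same test.
Vma21, an assembly factor of the vacuolar proton pump, had means of 45.9 ± 3.04 CPM in wt and 33.2 ± 4.33 CPM in Ts65Dn (SD, n = 6 each). Stk17b, a death-associated protein kinase relative, had means of 13 ± 0.683 and 9.32 ± 0.830 CPM. Both were separate between genotypes and were called in all 12 fits without 1 mouse (edgeR adjusted p = 0.0131 and 0.00681 in the fit of 12 libraries).

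Zxdb, an X-linked zinc finger gene, differed from the other decreases in its composition, 50.8% GC. It lay between 20.8 and 22.7 CPM in wt and between 12.4 and 19.1 CPM (median 14.4) in Ts65Dn, where replicates 1, 3 and 4 were between 12.4 and 12.8 CPM and replicates 2, 5 and 6 between 16.1 and 19.1 CPM. Its adjusted p was 0.0247 in edgeR's test and 0.0312 with GC content and length removed. Fastkd5, which acts in the maturation of mitochondrial transcripts, and Chml, which escorts Rab proteins to prenylation, each fell by 0.47 on the log2 scale (edgeR adjusted p = 0.0302 and 0.0272). Zxdb and Chml were each called in 6 of the 12 fits without 1 mouse, and Fastkd5 in 3. The other genes among the 12 were mt-Atp6, mt-Nd1, Zfp729b and Pnrc2. With GC content and length removed, Pnrc2, Zxdb, Chml and Vma21 kept an adjusted p under 0.05, and the other 8 did not.

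Higher and lower genes differed in base composition. The longest transcript had a median GC content of 57.7% in the 125 higher genes and 40.9% in the 193 lower genes, against 49.9% over all genes tested. In all, 191 of the 193 lower genes were under 50% GC and 115 of the 125 higher genes were over it. As single examples, which do not stand for the composition of whole transcripts, the start of the longest coding exon is given, with G and C in capitals, for the 2 lower genes poorest in GC and the higher gene richest in it, among named nuclear genes of at least 100 CPM in wt (GENCODE vM21 transcripts, GRCm38, 5′ to 3′ on the coding strand). The Arhgap5 stretch is chr12:52516248-52516367 on the plus strand in exon 2, with 50 G or C among 120 bases (41.7%, and 37.3% over the coding sequence). The Calb1 stretch is chr4:15904650-15904760 on the plus strand in exon 11, with 45 among 111 (40.5%, and 43.2% over the coding sequence). The Grik5 stretch is chr7:25010675-25010794 on the minus strand in exon 20, with 88 among 120 (73.3%, and 61.7% over the coding sequence).
Arhgap5 (lower): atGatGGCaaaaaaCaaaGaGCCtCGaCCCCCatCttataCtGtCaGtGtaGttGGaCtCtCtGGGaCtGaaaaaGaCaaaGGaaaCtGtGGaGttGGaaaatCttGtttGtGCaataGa
Calb1 (lower): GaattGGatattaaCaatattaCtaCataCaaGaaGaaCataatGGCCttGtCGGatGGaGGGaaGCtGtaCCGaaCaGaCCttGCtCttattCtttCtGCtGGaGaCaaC
Grik5 (higher): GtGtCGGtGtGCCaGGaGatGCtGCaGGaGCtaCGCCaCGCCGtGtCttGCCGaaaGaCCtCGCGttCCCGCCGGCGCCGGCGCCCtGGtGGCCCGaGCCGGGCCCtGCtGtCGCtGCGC

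The relation held over all genes tested and not only the called ones. Across the 14196 genes, which share their libraries and are not independent, log2 fold change and GC content had a Spearman correlation of 0.50, and 0.035 once GC content and length were removed. Genes were divided by GC content into 5 bins of nearly equal size. In the bin of lowest GC content (31.0% to 43.95%), the median log2 fold change was -0.12, with 3 genes called higher and 156 lower. In the bin of highest GC content (55.7% to 74.2%), it was 0.11, with 81 called higher and 0 lower. The middle bin had 11 higher and 3 lower, at a median of 0.02. After removal, 6 higher and 22 lower genes were called in the lowest bin and 2 higher and 5 lower in the highest.

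**Figure D2:**
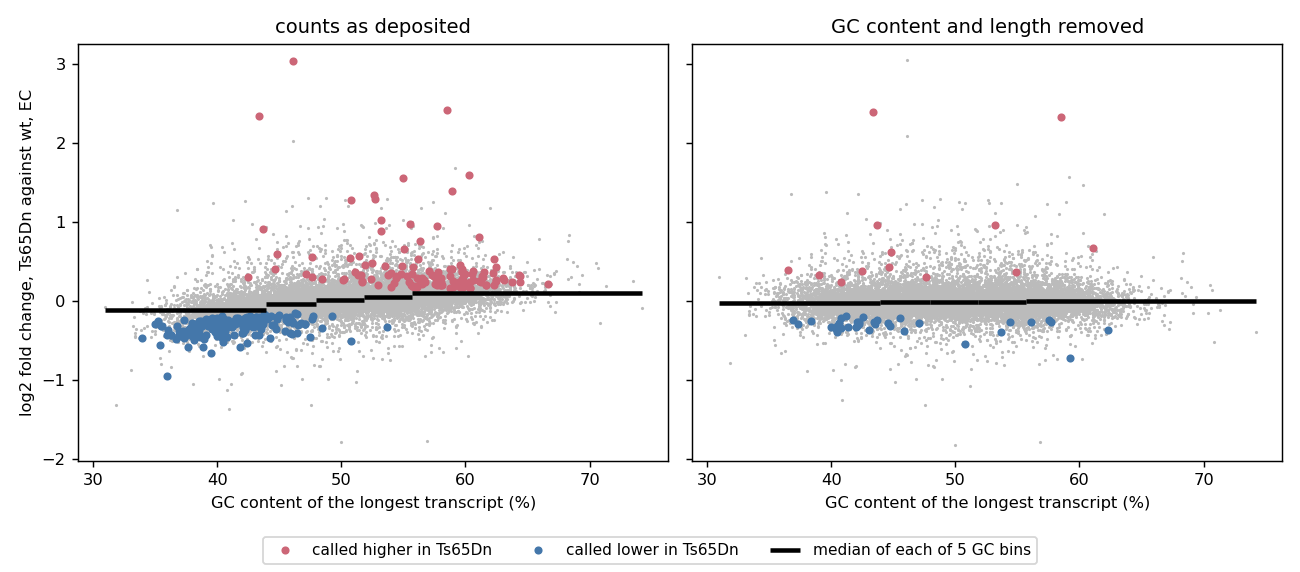
Log2 fold change of Ts65Dn over wt in the EC (vertical axis) against the GC content of each gene's longest transcript (horizontal axis, percent) for 14196 protein-coding genes outside the triplicated segments, for the counts as deposited and with GC content and length removed. Red and blue points are genes called higher and lower, and black bars are the medians of 5 bins of genes by GC content, which run from -0.12 to 0.11 on the left and from -0.016 to -0.002 on the right.

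The trend differed between libraries of the same genotype. Against the wt mean, the level of a gene changed per 10 percentage points of GC content by 0.26 on the log2 scale in the library labelled Ts65Dn replicate 3, the steepest of all 12. It changed by 0.18 in replicate 1, 0.11 in replicate 2, 0.12 in replicate 4, 0.083 in replicate 5 and 0.037 in replicate 6. In wt it ranged from -0.073 in replicate 4 to 0.10 in replicate 2, so the genotypes overlapped in this slope, with wt replicate 2 above Ts65Dn replicates 5 and 6. In the HIP libraries of the same mice, the slope ranged from -0.084 to 0.094 in wt and from 0.014 to 0.17 in Ts65Dn. The source of the slope was not tested.

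Each library was then set against the genes called without it, on a scale where 0 is the wt mean and 1 the Ts65Dn mean of the other libraries. At the triplicated genes called without it, each of 5 Ts65Dn libraries had a median position between 1.10 and 1.20, and the library labelled replicate 3 had -0.026, with 4 of 82 genes nearer to Ts65Dn. At the 183 protein-coding genes called lower without it outside the segments, the same library had a median of 1.20, with 145 genes (79.2%) nearer to Ts65Dn. At the 143 genes called higher that could be placed, its median was 0.43, with 62 genes (43.4%) nearer to Ts65Dn. With GC content and length removed, its medians were 0.27 at 105 lower genes and 0.18 at 51 higher genes, with 35.2% and 23.5% nearer to Ts65Dn.
Ts65Dn replicate 6 showed the opposite order, with a median of 1.16 at the triplicated genes and 0.32 at 397 genes called lower without it. The wt libraries lay between -0.097 and 0.22 at the lower genes, other than wt replicate 2, which had a median of 0.50. The Ts65Dn libraries had the same order at the lower genes and in the GC slope, which from the highest was replicates 3, 1, 4, 2, 5 and 6. Nearly all lower genes are poor in GC, so these 2 measures are not independent of each other. At the higher genes the order differed. There replicate 3 had the lowest position of the Ts65Dn libraries, 0.43, against 0.59 to 0.98 in the others.

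**Figure D3:**
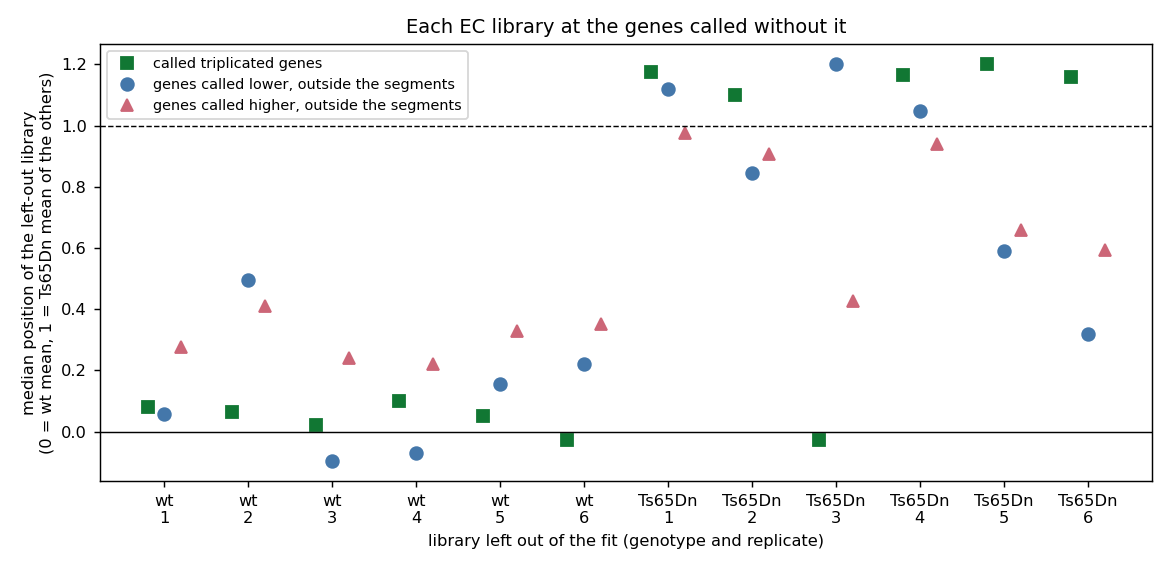
Median position of each EC library (horizontal axis) at genes called in the fit without it, where 0 is the wt mean and 1 the Ts65Dn mean of the other libraries (vertical axis), for triplicated genes (squares) and for protein-coding genes outside the segments called lower (circles) or higher (triangles). The library labelled Ts65Dn replicate 3 is at -0.026 for triplicated genes and at 1.20 for lower genes, and Ts65Dn replicate 6 is at 1.16 and 0.32.

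Pathways were described with 31 gene lists and cell types with 15 more, which held 1778 tested genes, 10 called higher and 44 lower. Over all genes tested, 0.881% were called higher and 1.36% lower. Of the 44 lower genes, 17 belong to the list of zinc finger genes described below. In 10 pathway lists no gene was called. The list for GABA synthesis, transport and receptors had the largest share of calls, 0 higher and 4 lower of 23 tested (17.4%, against 2.24% of all genes), among them subunits of the GABA-A receptor, the chloride channel of fast inhibition. The median of the 23 genes was -0.061, beside 0.01 over all genes, and -0.018 with GC content and length removed, where Gabra4 alone was called.
Beside Gabra4, described above, Gabra3, the alpha 3 subunit, lay between 289.5 and 328 CPM (median 306) in wt and between 246 and 273 CPM (median 265) in Ts65Dn, without overlap, and fell with a log2 fold change of -0.22 (edgeR adjusted p = 0.0183). Gad1, which makes GABA, lay between 381 and 456 CPM (median 397) in wt and between 379 and 444 CPM (median 397) in Ts65Dn and was not called. Without replicate 3, 4 genes of the list were again called lower. In bulk tissue, fewer cells of a type and less RNA per cell cannot be told apart.

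Of 23 glutamate receptor genes, 1 was called (4.35%, against 2.24% of all genes), Grik5, the kainate receptor subunit GluK5, which rose from a mean of 182 ± 9.52 CPM in wt to 210.2 ± 11.4 CPM in Ts65Dn (SD, n = 6 each), without overlap (log2 fold change 0.21, edgeR adjusted p = 0.036, and 0.594 with GC content and length removed). Of 51 genes of vesicle release, Syn1, which tethers synaptic vesicles, was the only one called (1.96%). It lay between 733 and 797 CPM (median 742) in wt and between 813 and 931 CPM (median 875) in Ts65Dn and rose with a log2 fold change of 0.20 (adjusted p = 0.0392, 0.0543 without replicate 3, and 0.432 with GC content and length removed).

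Ion channel calls ran in both directions. Of 39 voltage-gated potassium channel genes, 1 was called higher and 2 lower (7.69%, against 2.24% of all genes). Kcnb2, a delayed rectifier, had a log2 fold change of -0.31 (adjusted p = 0.0377), and Kcnv1, a silent modifier subunit, -0.28 (adjusted p = 0.0494, both from edgeR). Without replicate 3, Kcnv1 lost its call (adjusted p = 0.0688). Kcnv1 was called in 2 of the 12 fits without 1 mouse and Kcnb2 in 3. Of 23 sodium and calcium channel genes, 1 was called (4.35%). Cacna1h, the T-type calcium channel Cav3.2, rose from 29.9 ± 3.25 to 38.0 ± 2.82 CPM (SD, n = 6 each), without overlap (log2 fold change 0.35, edgeR adjusted p = 0.0284). None of these 3 channels was called with GC content and length removed, where Cacnb2, an auxiliary calcium channel subunit, was called higher in their place (log2 fold change 0.34, adjusted p = 0.0192).

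The 13 proteins encoded by the mitochondrial genome, subunits of the respiratory chain and the ATP synthase, had a log2 fold change under 0 in each case, with a median of -0.44, and -0.19 with GC content and length removed. Of these, 2 were called (15.4%, against 2.24% of all genes). mt-Nd1, a complex I subunit, lay between 7383 and 11970 CPM (median 9007) in wt and between 5312 and 8280 CPM (median 5969) in Ts65Dn, with Ts65Dn replicate 5 inside the wt range, and fell with a log2 change of -0.57 and a standard error of 0.12 (adjusted p = 0.0236) by edgeR. mt-Atp6, an ATP synthase subunit, lay between 11.6 and 19.0 CPM (median 12.2) in wt and between 5.09 and 10.9 CPM (median 6.76) in Ts65Dn, without overlap, and fell with a log2 fold change of -0.94 (adjusted p = 0.0174). Its level is far under that of mt-Nd1. Mitochondrial reads can also match nuclear copies, and how such reads were counted is not given in the sources used here, so these values are uncertain. With GC content and length removed, neither was called (edgeR adjusted p = 0.188 and 0.0808). The nuclear side showed no calls. The 77 nuclear genes of the respiratory chain and ATP synthase had a median of -0.021, the 75 mitochondrial ribosomal proteins 0.035, the 82 cytosolic ribosomal proteins -0.012, and the 38 proteasome subunits 0.00, with 0 calls in each list.

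Of 44 genes of the unfolded protein and heat shock responses, 2 were called (4.55%, against 2.24% of all genes), both co-chaperones of Hsp70 proteins and both lower. Dnajb9, a co-chaperone of the endoplasmic reticulum, lay between 44.5 and 55.4 CPM (median 51.7) in wt and between 35.1 and 42.5 CPM (median 38.8) in Ts65Dn, without overlap. It fell, with a log2 change of -0.38 and a standard error of 0.063 (adjusted p = 0.00923) by edgeR, and with an adjusted p of 0.0394 once GC content and length were removed. Dnaja1, a cytosolic co-chaperone, lay between 159 and 189 CPM (median 179) in wt and between 129.8 and 159 CPM (median 147) in Ts65Dn, with the ranges meeting at wt replicate 2 and Ts65Dn replicate 5, and fell with a log2 fold change of -0.29 (edgeR adjusted p = 0.02, and 0.046 with GC content and length removed). The list had a median of -0.049, and of -0.047 with GC content and length removed.
Of 53 lysosomal genes, 2 were called (3.77%). Lamp2, a membrane protein needed for fusion with autophagosomes, fell from 101 ± 4.34 to 84.9 ± 4.59 CPM, and Scarb2, the receptor that sorts glucocerebrosidase, from 206 ± 5.51 to 186 ± 5.38 CPM (SD, n = 6 each, edgeR adjusted p = 0.0169 and 0.0494). Both were separate between genotypes. Scarb2 lost its call without replicate 3 (adjusted p = 0.0622), and both lost it with GC content and length removed (adjusted p = 0.153, and 0.555 for Lamp2, whose log2 fold change went from -0.25 to -0.10). Gclm, the modifier subunit of the enzyme that starts glutathione synthesis, was the only call among 30 antioxidant genes (3.33%). It lay between 61.1 and 68.0 CPM (median 63.7) in wt and between 49.8 and 56.4 CPM (median 51.9) in Ts65Dn, without overlap, and fell with a log2 change of -0.28 and a standard error of 0.05 (adjusted p = 0.0145) by edgeR, and it was called in all 12 fits without 1 mouse and not with GC content and length removed (adjusted p = 0.0699).

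The largest list, 350 tested genes named Zfp for zinc finger proteins, many of them repressors with KRAB domains, held 1 higher and 17 lower calls (5.14%, against 2.24% of all genes), with a median of -0.090 and 104 of 350 genes above 0. Of the 2841 genes in the bin of lowest GC content, 156 were called lower, and of the 2839 in the next bin 33. Zfp729b, Zfp148, Zfp24 and Zfp943 had the smallest p. Zfp148, a regulator that binds GC-rich promoters, lay between 147 and 163 CPM (median 153) in wt and between 124 and 141 CPM (median 126) in Ts65Dn, where replicate 6, at 141 CPM, stood above the other five at 123.5 to 126.1 CPM and still under every wt library. It fell, with a log2 change of -0.27 and a standard error of 0.045 (adjusted p = 0.00927) by edgeR. Zfp24, which takes part in oligodendrocyte maturation, fell with a log2 fold change of -0.30, Zfp943 with -0.39 and Zfp729b with -0.48 (edgeR adjusted p = 0.0154, 0.0168 and 0.0154). These 4 genes were called in all 12 fits without 1 mouse. With GC content and length removed, 0 of the 350 genes were called and the median was -0.058, and the median GC content of the list was 44.6%. Reads of Zfp genes of one cluster can match several of them, so single members are uncertain.

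Of 51 regulators of small GTPases and actin, Arhgap5 and Abi2 were called lower (3.92%). Abi2, a subunit of the WAVE complex that drives actin branching, lay between 318 and 339 CPM (median 329) in wt and between 261 and 307 CPM (median 289) in Ts65Dn, without overlap, and fell with a log2 fold change of -0.18 (edgeR adjusted p = 0.0416). Among 43 genes of microtubules, motors and neurofilaments, 2 were called, both higher (4.65%, against 2.24% of all genes). Klc1, the kinesin light chain that binds cargo, rose from 571 ± 30.6 to 653 ± 16 CPM, and Dctn1, the largest dynactin subunit, from 318 ± 8.54 to 357 ± 12.1 CPM (SD, n = 6 each, edgeR adjusted p = 0.0323 and 0.0337), both without overlap. None of these 4 was called with GC content and length removed.

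Axon guidance and matrix genes gave few calls (3.08% of 65 and 2.0% of 50 genes tested, against 2.24% of all genes). Sema3a, a secreted repellent of growing axons (chromosome 5, 13125414 to 13602565), lay between 50.8 and 64.2 CPM (median 57.9) in wt and between 35.2 and 48.2 CPM (median 43.0) in Ts65Dn, without overlap. It fell, with a log2 change of -0.45 and a standard error of 0.078 (adjusted p = 0.0131) by edgeR, and was called in all 12 fits without 1 mouse and with GC content and length removed (adjusted p = 0.0274). Sema6c, a membrane-bound semaphorin, rose with a log2 fold change of 0.38 (adjusted p = 0.0479, 0.0721 without replicate 3 and 0.289 with GC content and length removed), and the other 63 of the 65 axon guidance genes were not called. Hapln1, which links hyaluronan to proteoglycans in perineuronal nets, lay between 30.0 and 36.8 CPM (median 33.9) in wt and between 21.9 and 30.7 CPM (median 26.9) in Ts65Dn, where replicate 5 reached the wt range, and fell with a log2 fold change of -0.39 (edgeR adjusted p = 0.0303, and 0.113 with GC content and length removed). Bmpr1a, a type I BMP receptor, fell from 81.2 ± 3.82 to 68.3 ± 3.0 CPM (SD, n = 6 each), without overlap and in all 12 fits without 1 mouse, the single call among 46 genes of Wnt, Notch and BMP signalling (2.17%). It was not called with GC content and length removed, where its log2 fold change went from -0.25 to -0.15 (adjusted p = 0.198).

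Immune lists held 1 call in all. Over 23 genes of MHC presentation the median log2 fold change was 0.34, with 20 genes above 0, 0.30 with GC content and length removed and 0.21 without replicate 3. Only Nlrc5, the transactivator of MHC class I genes, was called (4.35%, against 2.24% of all genes). It lay between 0.0972 and 0.366 CPM (median 0.231) in wt and between 0.312 and 0.922 CPM (median 0.549) in Ts65Dn, and had a log2 change of 1.34 and a standard error of 0.33 (adjusted p = 0.0451) by edgeR, with replicates 3 and 5 inside the wt range, and an adjusted p of 0.0851 with GC content and length removed. H2-K1, a class I heavy chain, lay between 10.4 and 24.5 CPM (median 14.3) in wt and between 13.5 and 29.3 CPM (median 23.4) in Ts65Dn and was not called (adjusted p = 0.157), and H2-D1 lay between 5.24 and 29.7 CPM (median 14.7) and between 6.37 and 38.5 CPM (median 15.2). The spread within genotypes was wide in both genes. Class I genes of this cluster are near copies of each other and differ between mouse strains, so their counts are uncertain. Of 41 interferon-stimulated genes, 0 were called, with a median of 0.12, and of 30 complement and cytokine genes 0 were called, with a median of 0.050, which was -0.019 without replicate 3 and -0.026 with GC content and length removed.

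Metabolic and regulatory lists held single lower genes, so each share called rests on 1 gene, against 2.24% of all genes. Idi1, an isomerase of the cholesterol pathway, had a log2 fold change of -0.58 (adjusted p = 0.0412, and 0.0626 without replicate 3), 1 call among 27 genes (3.7%). Slc16a1, the lactate and ketone transporter MCT1, had -0.33 (adjusted p = 0.0448), 1 call among 39 genes of glycolysis and the citric acid cycle (2.56%). Rora, a nuclear receptor of the clock, had -0.28 (adjusted p = 0.0362), 1 among 21 clock genes (4.76%). Klf9, a transcription factor induced by glucocorticoids, had -0.46 (adjusted p = 0.0348, all from edgeR), 1 among 19 (5.26%). Klf9 lost its call without replicate 3 (adjusted p = 0.0523), and each of these 4 lost it with GC content and length removed. The immediate early genes of neuronal activity (30 tested, median 0.11), neuropeptides and neurotrophins (29 tested, median 0.012), spliceosome genes (73 tested, median -0.004) and clustered protocadherins (53 tested, median -0.11, 9 above 0) had 0 calls. Without replicate 3, 4 protocadherins were called lower.

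**Figure D4:**
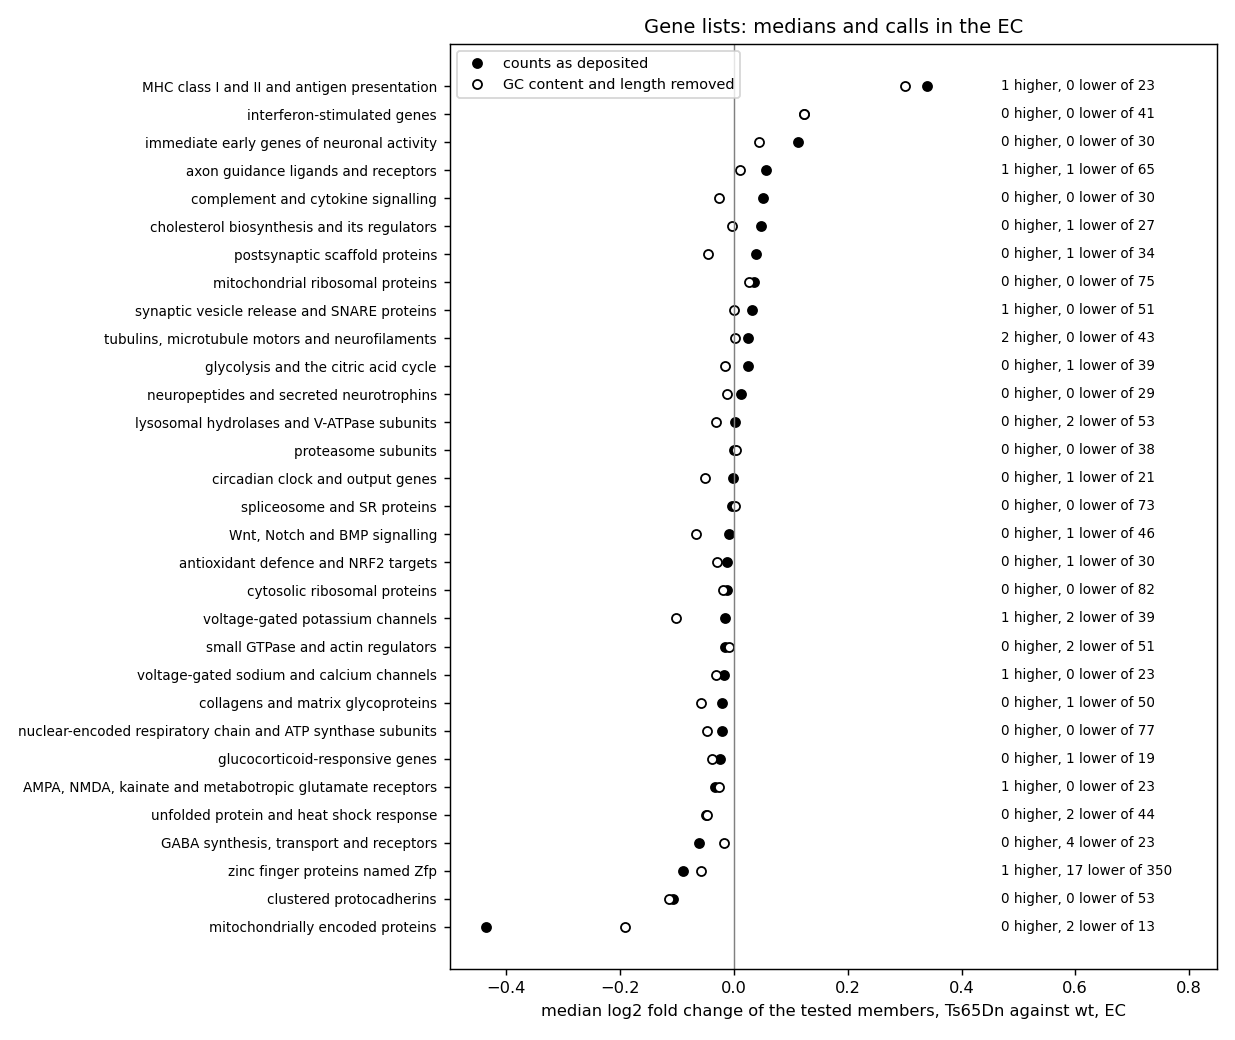
Median log2 fold change of Ts65Dn over wt in the EC (horizontal axis) over the tested members of each of 31 pathway lists (rows), for the counts as deposited (filled) and with GC content and length removed (open), with the numbers of genes called higher and lower at the right. Mitochondrially encoded proteins have the lowest median, -0.44 and -0.19, and the MHC list the highest, 0.34 and 0.30.

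Of the 15 cell type lists, 5 held a called gene, 1 each. That was 4.0% to 7.14% of the genes tested in those lists, against 2.24% of all genes, and each share rests on 1 gene. List medians were highest for choroid plexus and ependymal markers, 0.37 over 10 tested genes (0.31 with GC content and length removed), striatal markers, 0.20 over 14 (0.11), and histone genes, 0.19 over 11 (0.21), beside 0.01 over all genes. Summed choroid plexus and ependymal markers ranged from 266.0 to 317 CPM in wt and from 227 to 287.5 CPM in Ts65Dn. The median of 11 blood cell markers was -0.049 over all libraries and -0.82 without replicate 3. Summed over the list, astrocyte markers ranged from 8116 to 9449 CPM in wt and from 6366 to 8563 CPM in Ts65Dn, with 3 of 16 genes above 0 and a median of -0.098. Gli3, a transcription factor of the hedgehog pathway, was the 1 astrocyte marker called, with a log2 fold change of -0.34 (edgeR adjusted p = 0.0323, and 0.0686 with GC content and length removed). Of 20 microglia markers, P2ry12, the purinergic receptor of resting microglia, fell, and lay between 51.9 and 73.9 CPM (median 60.0) in wt and between 40.7 and 51.9 CPM (median 44.7) in Ts65Dn, the ranges meeting at 51.9 CPM without crossing, with a log2 change of -0.45 and a standard error of 0.091 (adjusted p = 0.0226) by edgeR and an adjusted p of 0.152 with GC content and length removed. Cx3cr1, another microglial receptor, lay between 64.9 and 86.7 CPM (median 72.0) and between 64.1 and 77.0 CPM (median 71.6) and was not called. Of 18 EC layer markers, Calb1, a calcium buffer of pyramidal cells in layer II and of interneurons, fell. It lay between 218 and 254 CPM (median 239) in wt and between 179.8 and 209 CPM (median 187) in Ts65Dn, without overlap, with a log2 change of -0.31 and a standard error of 0.052 (adjusted p = 0.00923) by edgeR and an adjusted p of 0.537 with GC content and length removed. Erbb4, a neuregulin receptor of interneurons, fell with a log2 fold change of -0.28 (edgeR adjusted p = 0.043, 0.062 without replicate 3 and 0.184 with GC content and length removed), 1 call among 25 interneuron markers. It was called in 2 of the 12 fits without 1 mouse. The list did not follow it, with 13 of the 25 markers above 0 and a median of 0.001.
Markers of glutamatergic neurons, oligodendrocytes, their precursors, endothelium, pericytes, meninges, choroid plexus, blood, the dentate gyrus and CA fields and replication-dependent histones gave 0 calls. Summed meningeal markers ranged from 112.4 to 324.9 CPM in wt and from 110.2 to 237.9 CPM in Ts65Dn, and summed oligodendrocyte markers from 1659 to 3182 CPM and from 1918 to 3388 CPM.

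Among striatal markers, Drd2, the dopamine D2 receptor, rose, with a log2 change of 1.56 and a standard error of 0.33 (adjusted p = 0.0254) by edgeR, and was called in 7 of the 12 fits without 1 mouse, with an adjusted p of 0.0094 without replicate 3 and 0.0579 with GC content and length removed. It lay between 0.630 and 2.19 CPM (median 1.18) in wt and between 1.77 and 6.72 CPM (median 3.54) in Ts65Dn. The highest libraries were Ts65Dn replicates 1, 2 and 6, at 4.43, 4.73 and 6.72 CPM, and replicate 3 lay inside the wt range. The same 3 libraries were the highest in Adora2a, the adenosine receptor found with Drd2 in indirect pathway neurons, at 9.96, 9.79 and 16.3 CPM, whereas the other Ts65Dn libraries lay between 1.81 and 2.04 CPM and wt between 1.56 and 3.87 CPM (median 1.91). Adora2a was not called (edgeR adjusted p = 0.0956). Penk, the enkephalin precursor of the same neurons, lay between 19.6 and 43.0 CPM (median 24.8) in wt and between 29.1 and 85.8 CPM (median 52.9) in Ts65Dn (adjusted p = 0.0643), and Rgs9 reached 14.2 CPM in Ts65Dn replicate 6.
Other striatal genes were not called. Drd1, of direct pathway neurons, lay between 13.6 and 21.0 CPM (median 15.6) in wt and between 10.9 and 19.4 CPM (median 17.7) in Ts65Dn, and Ppp1r1b lay between 54.9 and 77.1 CPM (median 65.3) and between 52.3 and 84.0 CPM (median 78.2). Over the list, 11 of 14 tested markers were above 0, the summed level ranged from 459.0 to 535.0 CPM in wt and from 438.1 to 600.6 CPM in Ts65Dn, and Isl1 and Six3 did not pass the filter on low counts. The part of striatal RNA in the Drd2 result was not tested.

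**Figure D5:**
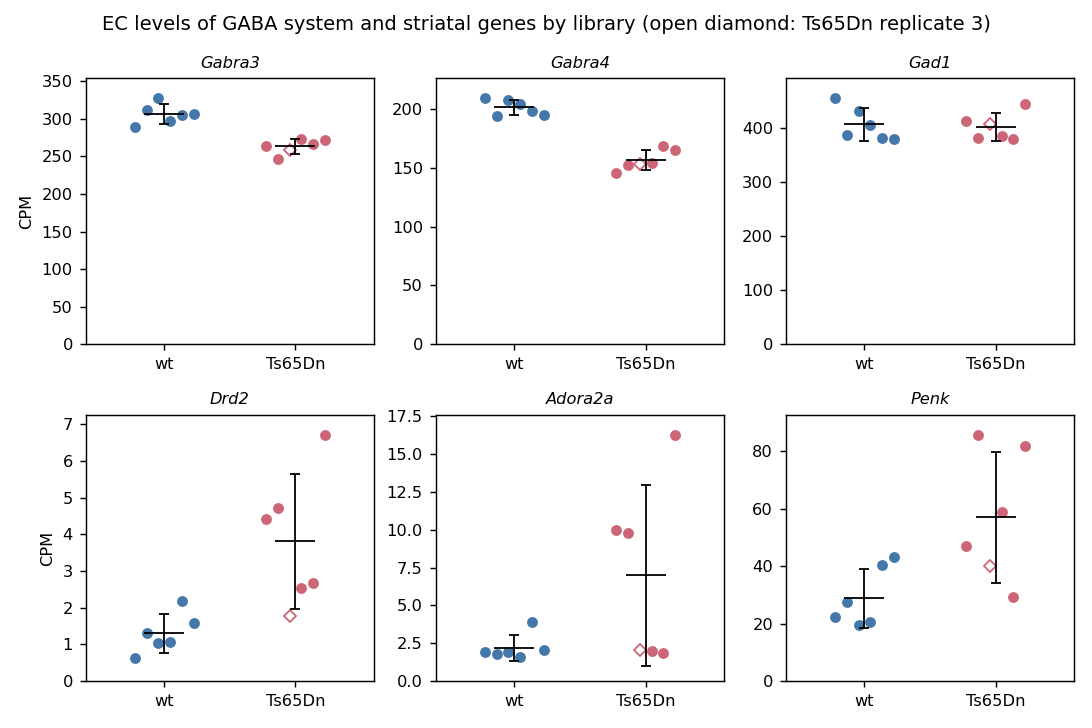
Levels in CPM (vertical axes, each starting at 0) of 3 genes of the GABA system and 3 striatal genes in the 6 wt and 6 Ts65Dn EC libraries, 1 point per library, with the library labelled Ts65Dn replicate 3 as an open diamond and the mean ± SD in black. Gabra3 and Gabra4 do not overlap between genotypes, Gad1 does, and Adora2a is at 9.79 to 16.3 CPM in 3 Ts65Dn libraries and at 1.56 to 3.87 CPM in the other 9 libraries.

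In the HIP of the same mice, 315 of the 318 genes were tested, and 310 of them had the same sign as in the EC. The median change in the direction of the EC was 0.17 on the log2 scale in the HIP, against 0.29 in the EC where the genes were selected, and 21 genes were called in the HIP. The shares of all genes with the same sign, or called in the HIP, are not given here, so these counts lack a background. The GC slope was above 0 in each Ts65Dn HIP library (0.014 to 0.17) and ran from -0.084 to 0.094 in wt. HIP values with GC content and length removed are not given. Pnrc2 changed there by -0.53 (log2, edgeR adjusted p = 0.00819), next to -0.51 in the EC, Rab39b by -0.27 (adjusted p = 0.0141), Vma21 by -0.32 (adjusted p = 0.0274) and Dnajb9 by -0.28 (adjusted p = 0.0367). Gabra4 had -0.19 (adjusted p = 0.0883), 2510009E07Rik -0.07 (adjusted p = 0.653) and Drd2 0.11 (adjusted p = 0.823). In the test of genotype by region with a term for each mouse, 0 of the 318 genes had an adjusted p under 0.05 in edgeR, the smallest being 0.9998, and 72 had an unadjusted p under 0.05. Over all 18109 genes in that test, 0 had an adjusted p under 0.05, and the share with an unadjusted p under 0.05 is not given. An EC change was therefore not shown to differ from that in the HIP for any of these genes. Both regions come from the same mice.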

How the data were processed

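The authors sequenced single-end reads of 50 bases, aligned them with Hisat2 to GRCm38 and deposited raw HTSeq-count counts per gene, without normalization, bcl2fastq 2.17.1.14 being named in the submitters' processing notes. The methods name a ribosomal RNA depletion kit and polyA RNA and the labels a stranded mRNA kit, so the enrichment, and the strand setting of the counting, are not certain. Tables of the authors' comparisons, also deposited, hold log2 fold changes, folds, scores and p-values and were not used. The members and gene lists were chosen with earlier results of these data known. Gene positions and GC content come from GENCODE vM21 (GRCm38), joined on gene identifiers.

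The 6 Ts65Dn and 6 wt EC libraries were compared with edgeR 4.0.16 in R 4.3.3 (filterByExpr, TMM, glmQLFit, glmQLFTest, Benjamini-Hochberg over all genes tested), without pairing. Each library is 1 mouse. Log2 CPM for positions and slopes used a prior count of 2. GC content and length were removed with natural splines of 5 degrees of freedom each, fitted per library and entered as offsets. Alternatives were DESeq2 1.42.0, its size factors within edgeR, no filter, at least 10 counts in every library, an adjusted p under 0.1, a block for the replicate number, and leaving out each mouse. The removal of GC content and length without Ts65Dn replicate 3, the count without genes beside the Mmu16 span, and the positions with GC content and length removed were chosen after seeing the data. Named were the 12 higher and 12 lower genes with the largest changes called with and without Ts65Dn replicate 3 at 1 CPM or more, up to 4 called genes of each list by p, and up to 10 genes by p called in all fits without 1 mouse and with GC content and length removed. In simulated EC libraries, 61.5% of 200 genes set to change 1.5-fold were found by edgeR with 12 false calls, and 14.5% of 200 genes changed 1.25-fold with 0, so small changes can be missed at this depth. The simulated libraries had no GC trend between them and none went against its label. Their false calls therefore do not measure those in the real libraries. A few genes that the rule names are not reported here. Of the listed symbols, 8 were not in the annotation.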

Additional observations from a re-analysis of the deposited data

Results flagged for a closer look

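In 138 groups of 6 libraries checked for a value far from the other five, of which chance alone flags about 1 in 20, 4 stood out. That is no more than this rate gives. The median fold of the triplicated genes was 0.996 in the library labelled Ts65Dn replicate 3, against 1.47 to 1.51 in the other Ts65Dn EC libraries. That library had been singled out for this value beforehand, so the flag is not a new result. The next gene lies on the same minichromosome and repeats it. A730009L09Rik, on the minichromosome beside the Mmu16 span, was at 0.104 CPM in the same library and at 1.45 to 1.84 CPM in the others. Pnrc2 was at 28.4 CPM in Ts65Dn replicate 4, below the 31.2 to 32.7 CPM of the other Ts65Dn libraries. Zfp148 was at 141.0 CPM in Ts65Dn replicate 6, above the 123.5 to 126.1 CPM of the others.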

How the results depend on the processing

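The number of protein-coding genes called outside the segments (318) was 884 with DESeq2, 833 at an adjusted p under 0.1, 176 with no filter on low counts, 48 with GC content and length removed and 158 with both that removal and Ts65Dn replicate 3 left out. The share called higher, 39.3% in the fit of 12 libraries, was 27.1% with GC content and length removed and 19.6% to 28.2% without Ts65Dn replicate 1, 2 or 4 or wt replicate 4 or 5. Leaving out 1 mouse gave 46 to 566 genes, and 13 to 94 of the listed genes against 54. The listed genes called numbered 147 with DESeq2, 141 at an adjusted p under 0.1, 7 with GC content and length removed, and 27 when Ts65Dn replicate 3 was also left out. DESeq2 size factors within edgeR (327) and at least 10 counts in every library (378) stayed within 1.5 times. The median position of Ts65Dn replicate 3 at lower genes moved from 1.20 to 0.27 with GC content and length removed. Of the 67 named genes, 67 kept their call under DESeq2, 20 kept it with GC content and length removed, and 51 with no filter. None changed direction under any alternative in which it was tested. The causes were not tested.

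Replicate numbers are shared between genotypes without naming a common litter or day, and deviations of same-numbered libraries correlated between -0.10 and 0.17, so they do not pair the mice. A replicate block gave 10 called genes and 5 listed genes, and with GC content and length removed 2 and 0. Only the libraries numbered 1 correlated best with their own number. The interaction test had 0 genes past the threshold also without the term for the mouse (51 at an unadjusted p under 0.05) and without Ts65Dn replicate 3 (59). Depth limits the low genes. Selenov, Olfm5, Nlrc5, A730009L09Rik, Sfrp5, Lbp, Angptl1, C1qtnf2, Sytl1, Rph3al and Exoc3l4 had wt means under 1 CPM.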

Other observations

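With GC content and length removed, 9 genes were called that the plain fit did not call, singled out here after their values were seen. Col9a3, a collagen IX chain, had a log2 fold change of -0.72 (adjusted p = 0.0349), Mt3, the brain metallothionein, -0.36 (adjusted p = 0.0437), U2af1, which recognises the 3′ splice site, -0.26 (adjusted p = 0.0437), and Mul1, a mitochondrial ubiquitin ligase, -0.26 (adjusted p = 0.0456). Zmat5 and B630019K06Rik were also lower, at -0.26 and -0.24. Higher were Cacnb2, at 0.34, and Terf1, a telomere-binding protein, at 0.40 (adjusted p = 0.0289, all from edgeR). The lower genes given here are rich in GC, from 54.4% to 62.3%, and Terf1 and Cacnb2 poor in it, at 36.5% and 39.0%, opposite to the trend in the plain fit. In the fit that also left out Ts65Dn replicate 3, 47 of the 48 genes were called, and Mul1 was not (adjusted p = 0.0509).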
